A study of Mus musculus with 6 samples.

Results

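The 44 genes described here encode enzymes and regulators of cholesterol synthesis (21 sterol genes) and of the synthesis, elongation, desaturation and sphingolipid use of fatty acids (23 fatty acid genes), and all 44 were found among the 32285 genes of the count matrix. They were taken by name from a list that sets no threshold on measured values but was drawn up with earlier results of these data known, and the 2 lists were kept apart throughout. Sciatic nerve cells were prepared from C57BL6/J mice aged 23 weeks and enriched for Schwann cells with magnetic beads against O4, a lipid antigen of myelin-forming glia, and single-cell libraries were made with 10x Genomics 3' chemistry. The study compared a standard diet (SD) with a high fat diet (HFD), and the labels name no transgene or drug in either group. Cells of 3 SD libraries and 2 HFD libraries were analysed, and HFD replicate 3 was not analysed here. The count table calls the first group Ctrl, which was taken as SD. Whether each library is a separate animal is not said in the labels, so the p-values speak only of the spread between libraries, and that spread may be technical.

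Cholesterol is built from acetyl-CoA through the mevalonate pathway, and the transcription factor encoded by Srebf2 is known for switching on most of its enzymes when cell sterol is low. Fatty acids are made by acetyl-CoA carboxylase and fatty acid synthase, lengthened by elongases, desaturated, and joined to a sphingoid base to give the ceramides from which myelin galactolipids are made. Schwann cells are known to need both pathways, because myelin is a lipid-rich membrane that these cells make largely from their own cholesterol and fatty acids.

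The promoters show what the members share before any level is read. RefSeq (GRCm38.p6) gave a promoter for 17 of the 21 sterol genes and 20 of the 23 fatty acid genes, and the 250 bases before each start were searched on both strands for 3 motifs, none of which contains another. The CCAAT box, known as a site of the factor NF-Y, was present in 16 of 17 sterol promoters and 14 of 20 fatty acid promoters, against 33.8% of 32851 promoters of the same length. The letters TCACNCCAC, a form of the sterol regulatory element bound by the factors of Srebf1 and Srebf2, were present in 1 of 37 member promoters (Hmgcs1), against 1.05% of all promoters. The E-box CACGTG was present in 4 of 17 sterol and 4 of 20 fatty acid promoters, against 6.02% of all. A match is a description of letters and not a measured site. The promoters of the 2 sterol genes and the fatty acid gene with the most UMIs among those with a promoter are shown, 5′ to 3′ on the strand of the gene, because these genes are among the most counted members. Capitals mark the CCAAT box, read on either strand, and the sterol regulatory element letters. The stretches are chr13:119690101-119690350 on the plus strand for Hmgcs1, chr15:82147019-82147268 on the plus strand for Srebf2 and chr12:87388356-87388605 on the minus strand for Sptlc2.
Hmgcs1: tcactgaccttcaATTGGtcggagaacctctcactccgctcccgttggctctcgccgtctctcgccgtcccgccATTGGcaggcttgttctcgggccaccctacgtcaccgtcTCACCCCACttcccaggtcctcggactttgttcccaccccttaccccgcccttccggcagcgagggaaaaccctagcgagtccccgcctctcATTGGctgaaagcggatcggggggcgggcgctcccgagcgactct
Srebf2: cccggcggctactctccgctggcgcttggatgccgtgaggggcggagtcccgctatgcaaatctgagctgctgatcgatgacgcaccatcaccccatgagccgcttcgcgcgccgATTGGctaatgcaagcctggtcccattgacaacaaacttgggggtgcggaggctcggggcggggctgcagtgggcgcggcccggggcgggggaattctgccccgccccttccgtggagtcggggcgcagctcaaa
Sptlc2: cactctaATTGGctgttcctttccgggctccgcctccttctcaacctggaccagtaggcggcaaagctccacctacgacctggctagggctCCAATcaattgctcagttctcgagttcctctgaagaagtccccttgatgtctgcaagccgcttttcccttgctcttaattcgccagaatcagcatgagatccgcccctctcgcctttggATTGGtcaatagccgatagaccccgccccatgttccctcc
Hmgcs1, the cytosolic HMG-CoA synthase, held 3 CCAAT boxes and the sterol regulatory element letters in this stretch. Srebf2 held 1 CCAAT box, and Sptlc2, a catalytic subunit of serine palmitoyltransferase, held 3.

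The libraries were shallow and uneven. They held 40 to 81 cells on SD and 57 and 106 on HFD, with 37744 to 349450 UMIs (counts of distinct molecules) per library and 122 to 24932 per cell, and the libraries shared 0 cell barcodes. Levels are given as CPM, the UMIs of the genes scaled to 1000000 UMIs of the same cells, and intervals on them cover counting error only. The deposited table names 5 cell types, SCP (60 cells), mySC (92), Macrophages (143), nmSC (24) and repairSC (45), and these names were checked against fixed markers. In SCP all 14 myelinating Schwann markers were detected at 5.17% to 6.43% of UMIs on SD and 3.49% and 5.58% on HFD, and mast cell, erythroid, adipocyte, T cell and B cell markers were at 0. These are markers of myelinating Schwann cells, so SCP is used as the deposited name only. In nmSC, Mbp and Sox10 were at 0 and all 6 fibroblast markers were detected, at 1.27% to 5.87% of UMIs, and in repairSC the 4 Schwann lineage markers were at 0. The mySC cells of the HFD libraries stood apart from those of the SD libraries: 12.3% of their UMIs came from cells with at least 1% myelinating marker UMIs, against 61.3% on SD, and results on mySC are given with and without the other cells.

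Over all cells both lists were lower in each HFD library than in each SD library. Summed sterol gene levels were 1160, 1184 and 1404 CPM in SD replicates 1 to 3 and 429 and 876 CPM in HFD replicates 1 and 2. The means were 1249 ± 135 CPM (SD, n = 3) on the standard diet and 653 ± 316 CPM (SD, n = 2) on HFD, a ratio of 0.522. In brackets after a value with ±, SD stands for the standard deviation between libraries and not for the diet. Summed fatty acid gene levels were 1915, 2187 and 2040 CPM on SD and 804 and 1664 CPM on HFD, with means of 2047 ± 136 CPM (SD, n = 3) and 1234 ± 608 CPM (SD, n = 2), a ratio of 0.603. The groups did not overlap in either list, and HFD replicate 1 was the lowest library in both. Within the 2 project numbers of the library key, called runs 1 and 2 here, the sterol log2 ratio of HFD to SD was -1.45 in run 1 and -0.68 in run 2, and the fatty acid log2 ratio was -1.35 and -0.29. The compact myelin genes moved with both lists: their summed level was 26539 ± 10992 CPM (SD, n = 3) on SD and 9423 ± 8773 CPM (SD, n = 2) on HFD, a ratio of 0.355. Other marker lists also moved without overlap. Neutrophil markers were at 16.6 ± 10.0 CPM (SD, n = 3) on SD and 9072 ± 4103 CPM (SD, n = 2) on HFD. Without cells with over 1% neutrophil, erythroid or mast marker UMIs, the ratios of the lists were 0.547 (sterol) and 0.636 (fatty acid). Repair Schwann markers were at 2181 ± 185 CPM (SD, n = 3) on SD and 3186 ± 41.2 CPM (SD, n = 2) on HFD, and their part in the difference was not tested. Despite the name, this list was highest in Macrophages (2 of 6 detected), at means of 5191 CPM on SD and 5015 CPM on HFD, with overlap. In SCP, mySC, nmSC and repairSC its means were 597, 894, 1182 and 511 CPM on SD. On HFD they were 689, 386, 2856 and 600 CPM. Fewer Schwann cells and less lipid gene RNA per Schwann cell cannot be told apart in these summed values.

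**Figure D1:**
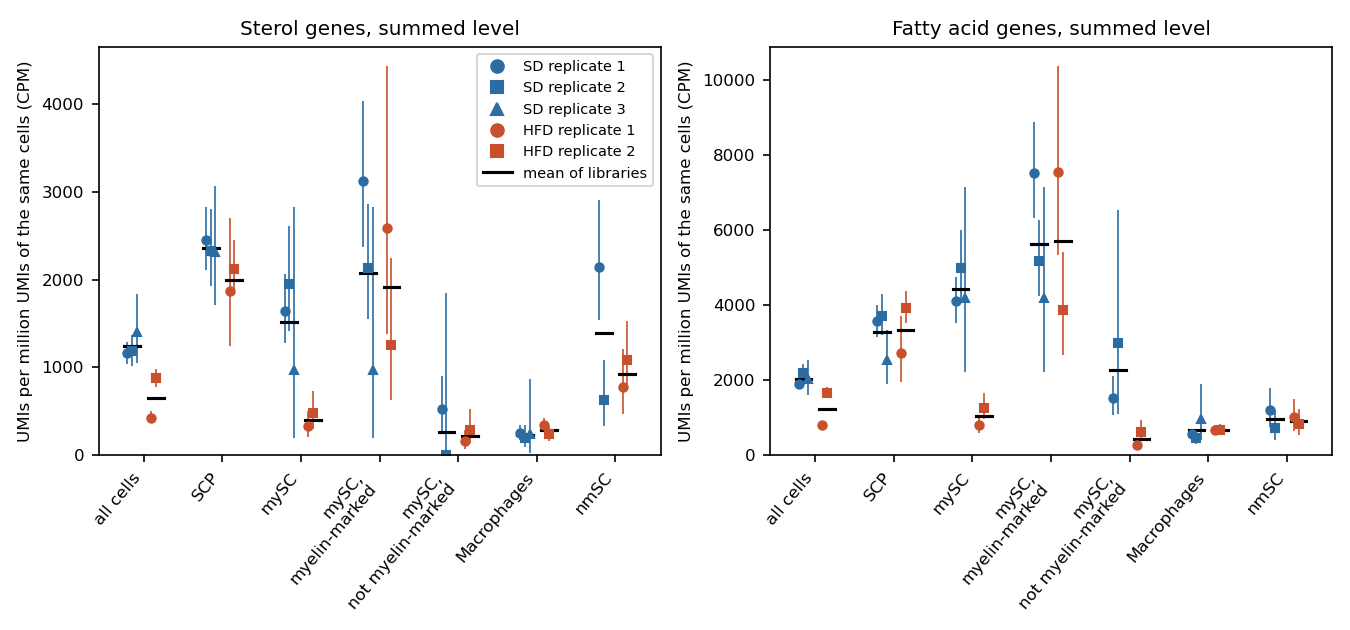
Summed level of the 21 sterol genes (left) and 23 fatty acid genes (right) in CPM, by set of cells on the horizontal axis. Points are libraries with exact 95% Poisson intervals and black lines are means of libraries. Over all cells and in mySC the HFD points lie below the SD points, while in SCP the fatty acid points overlap and the sterol means are 2363 and 1994 CPM.

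No single member passed the test over all cells. The quasi-likelihood test of edgeR on counts summed per library called 5 of 5510 genes (0.0907% called, none of them lower on HFD), and 0 of the 27 members tested, whose lowest adjusted p was 0.943. At an unadjusted p under 0.05 the members numbered 3, Fdft1, Hsd17b7 and Fasn, all lower on HFD, against 76 genes lower at that level among all tested (1.38%), and DESeq2 called 0 members. All 11 sterol genes tested had a fold change below 0, with a median of -0.82 on the log2 scale, and 13 of 16 fatty acid genes did, with a median of -0.37. Of all genes tested 48.3% had a fold change below 0, and their median was 0.02. Both HFD libraries lay below all SD libraries for 5 of 11 sterol and 5 of 16 fatty acid genes tested, against 12% of all genes tested. Over all 44 members with no filter, the HFD mean was below the SD mean for 15 of 21 sterol and 19 of 23 fatty acid genes.

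Among the early enzymes of the mevalonate pathway, Hmgcs1 had 260, 246 and 185 CPM in the SD libraries and 34.3 and 170 CPM in the HFD libraries, so the groups did not overlap but HFD replicate 2 lay close to SD replicate 3. Its log2 fold change was -1.11 ± 0.62 (standard error), with an adjusted p of 0.943 by edgeR. Idi1, the isomerase of isopentenyl diphosphate, had 64.1, 90.6 and 53.0 CPM on SD and 37.2 and 63.0 CPM on HFD, and the groups overlapped. Fdps, which makes farnesyl diphosphate, had 64.1, 97.1 and 106 CPM against 17.2 and 47.3 CPM, without overlap, and a log2 fold change of -1.25 ± 0.64. Mvk, Mvd and Pmvk, the mevalonate kinase, decarboxylase and phosphomevalonate kinase, had 17, 5 and 35 UMIs in all cells together, too few for a statement by diet.

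The squalene and sterol ring steps showed the lowest unadjusted p among sterol genes. Fdft1, squalene synthase, had 84.3, 90.6 and 132 CPM on SD and 8.58 and 50.4 CPM on HFD, with a log2 fold change of -1.59 ± 0.71 and an adjusted p of 0.943 by edgeR. Hsd17b7, a ketoreductase of the late sterol pathway, had 57.3, 38.8 and 26.5 CPM on SD and 2.86 and 9.45 CPM on HFD, from 17, 6 and 1 UMIs against 1 and 3. Neither gene overlapped between diets, and the Hsd17b7 difference rests on 28 UMIs in 20 cells. Cyp51, the lanosterol demethylase, had 53.9, 64.7 and 318 CPM on SD and 42.9 and 72.5 CPM on HFD. SD replicate 3, the shallowest library, stood far above the other 4 for Cyp51, and without it the log2 fold change of -0.82 ± 0.76 became 0.07. Msmo1, the methylsterol monooxygenase, had 84.3, 129 and 238 CPM against 48.6 and 88.2 CPM, and the groups overlapped by a small margin.

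The regulators had smaller fold changes than Hmgcs1, Fdft1 and Fdps. Srebf2 had 152, 123 and 132 CPM on SD and 42.9 and 120 CPM on HFD, with a log2 fold change of -0.63 ± 0.56, and HFD replicate 2 lay just below the lowest SD library. Insig1, which retains the SREBP complex in the endoplasmic reticulum, had 64.1, 90.6 and 53.0 CPM against 34.3 and 63.0 CPM, with overlap. Srebf1, the regulator best known for fatty acid genes, had 33.7, 12.9 and 53.0 CPM against 8.58 and 34.7 CPM, and its log2 fold change of -0.32 ± 0.97 turned to 0.31 without HFD replicate 1. The other 12 sterol genes had 5 to 47 UMIs each, and among them Ebp, a sterol isomerase, had 23.6, 6.47 and 0 CPM on SD and 45.8 and 15.8 CPM on HFD.

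Of the enzymes that make and elongate fatty acids, Fasn, fatty acid synthase, had 23.6, 58.2 and 79.5 CPM on SD and 5.72 and 9.45 CPM on HFD, from 7, 9 and 3 UMIs against 2 and 3. The groups did not overlap, and the log2 fold change was -2.38 ± 0.99 with an adjusted p of 0.943 by edgeR. Acaca, acetyl-CoA carboxylase, had 57.3, 97.1 and 79.5 CPM against 45.8 and 75.6 CPM, with overlap, and its log2 fold change of -0.19 ± 0.57 turned to 0.06 without HFD replicate 1 and to 0.04 without SD replicate 2. Elovl6, an elongase of C16 fatty acids, had 91.0, 97.1 and 159 CPM against 11.4 and 69.3 CPM, without overlap (log2 fold change -1.31 ± 0.71). Elovl1, an elongase of very long chains, had 128, 58.2 and 132 CPM against 40.1 and 75.6 CPM, and Tecr, the last enzyme of the elongation cycle, had 142, 97.1 and 238 CPM against 85.8 and 110 CPM, both with overlap.

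Scd2, a stearoyl-CoA desaturase, was the most counted member, with 549 UMIs in 97 cells. It had 661, 874 and 530 CPM on SD and 109 and 504 CPM on HFD, so HFD replicate 2 lay just below the lowest SD library and HFD replicate 1 far below, and the log2 fold change was -1.08 ± 0.62. Fads1, a front-end desaturase, had 74.2, 84.1 and 106 CPM against 57.2 and 72.5 CPM, without overlap but with a log2 fold change of only -0.22 ± 0.54. In the sphingolipid branch, Sptlc2 had 148, 298 and 106 CPM against 100 and 192 CPM, with overlap, and its log2 fold change of -0.25 ± 0.56 turned to 0.25 without SD replicate 2 and 0.09 without HFD replicate 1. Cers2, a ceramide synthase for very long chains, had 108, 110 and 79.5 CPM against 54.4 and 81.9 CPM, with overlap. Degs1, the dihydroceramide desaturase, went the other way, with 60.7, 38.8 and 53.0 CPM on SD and 88.7 and 94.5 CPM on HFD, without overlap and with a log2 fold change of 0.98 ± 0.56. Both HFD libraries lay above all SD libraries for 11% of all genes tested.

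**Figure D2:**
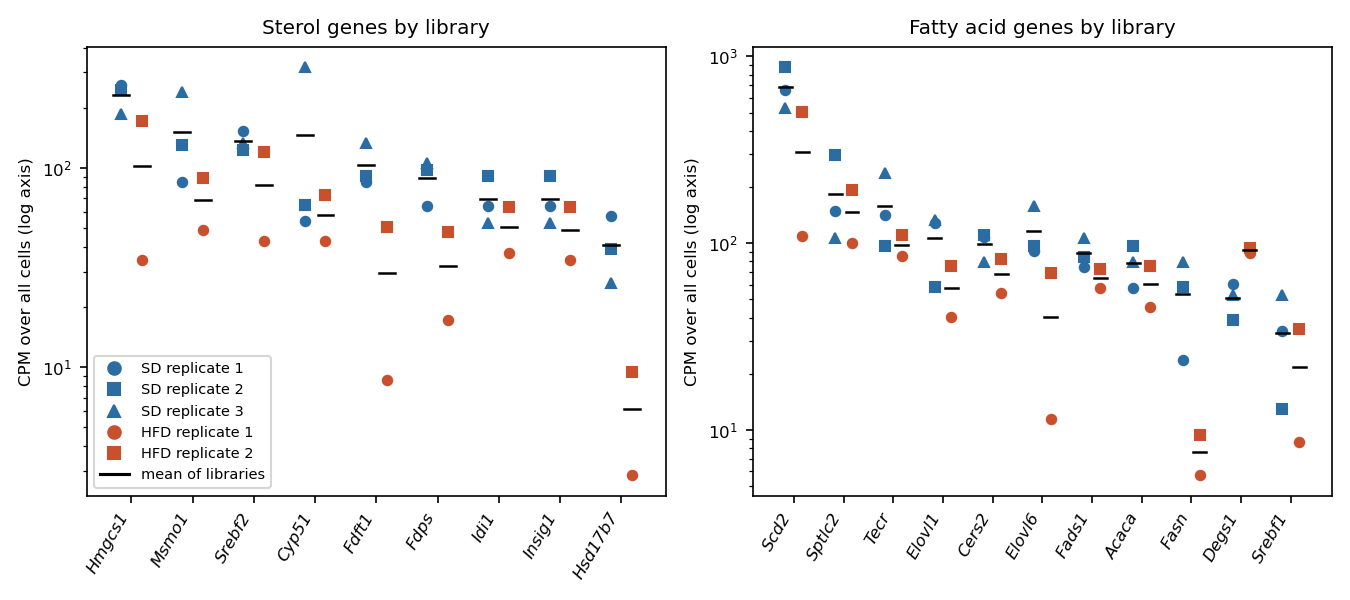
CPM over all cells (log axis) of the 9 sterol genes and 11 fatty acid genes described singly, by library, with black lines at the means. HFD replicate 1 is the lowest library for every gene plotted except Degs1, whose 2 HFD points both lie above the SD points.

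Which cells held the UMIs differed between the members. SCP cells were 16.5% of the cells and held 21.6% of all UMIs, 56.1% of the 1008 sterol UMIs and 50.1% of the 1792 fatty acid UMIs (exact 95% binomial intervals 52.9% to 59.1% and 47.7% to 52.4%). mySC cells held 16.1% and 23.2%, Macrophages 16.1% and 20.6%, nmSC 10.4% and 4.91%, and repairSC 1.39% and 1.28%. The shares of these 4 types among all UMIs were 15.7%, 50.4%, 8.13% and 4.22%. The types were clustered on these same counts, so the shares are a description. Few cells carried most of the signal: 50% of the sterol UMIs lay in 32 cells, of which 26 were SCP, 1 mySC, 4 nmSC and 1 Macrophages. For the fatty acid genes 40 cells held 50%, of which 29 were SCP, 7 mySC and 4 Macrophages. The cell with the most sterol UMIs held 27 and the cell with the most fatty acid UMIs held 43, and both were SCP. Depth differed between types, with a median of 4230 UMIs per SCP cell against 626.5 per mySC cell and 1064 per Macrophages cell.

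The carriers were not the same in every library. SCP and mySC together held 76.2%, 86.3% and 96.2% of the sterol UMIs in SD replicates 1 to 3, and 34.0% and 73.7% in HFD replicates 1 and 2. For the fatty acid genes the shares were 80.5%, 87.3% and 85.7% on SD and 34.2% and 75.4% on HFD. HFD replicate 1, the library with the lowest levels in both lists, had 51.3% of its sterol and 54.1% of its fatty acid UMIs in Macrophages. That type held 64.0% of all UMIs of the library.

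Scd2 had most of its UMIs in SCP and mySC. Of its 549 UMIs 63.2% were in SCP and 34.4% in mySC, and 0 of 582071 Macrophages UMIs were from Scd2, against a pooled level of 1390 CPM in SCP. Against a floor of 3 counts over all Macrophages (5.15 CPM), Scd2 was at least 269.8-fold higher in SCP. Lss, Acat2, Elovl7, Fads2, Fads3 and Me1 also had 0 UMIs in Macrophages, with 6 to 31 UMIs in all cells. Elovl6 had 83.8% of its UMIs in SCP and Hsd17b7 had 96.4% in SCP and mySC. For other members Macrophages held most UMIs, with 72.7% of the UMIs of Hsd17b12, a ketoacyl reductase of elongation, 62.1% of Ebp, 61.1% of Sptlc1 and 52.9% of Degs1. Degs1, Ebp, Sptlc1 and Hsd17b12 also had HFD means above the SD means over all cells. In all, 6 sterol and 4 fatty acid genes did, among them Lss (10 UMIs, 90% of them in SCP). The share of all UMIs from Macrophages was 36.7% on SD and 54.9% on HFD (means of libraries), with overlap between diets. Within Macrophages the log2 fold change was 0.91 ± 0.76 for Degs1 and 0.04 ± 0.68 for Hsd17b12. Sptlc1 had 0 UMIs there in each SD library and 5 and 6 in the HFD libraries, and Ebp overlapped. The part of cell mix in these single genes was not tested. The nmSC cells, led by fibroblast markers, had a pooled sterol level of 1117 CPM, and Hmgcs1's fullest cell, with 10 UMIs, was an nmSC cell of HFD replicate 2.

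**Figure D3:**
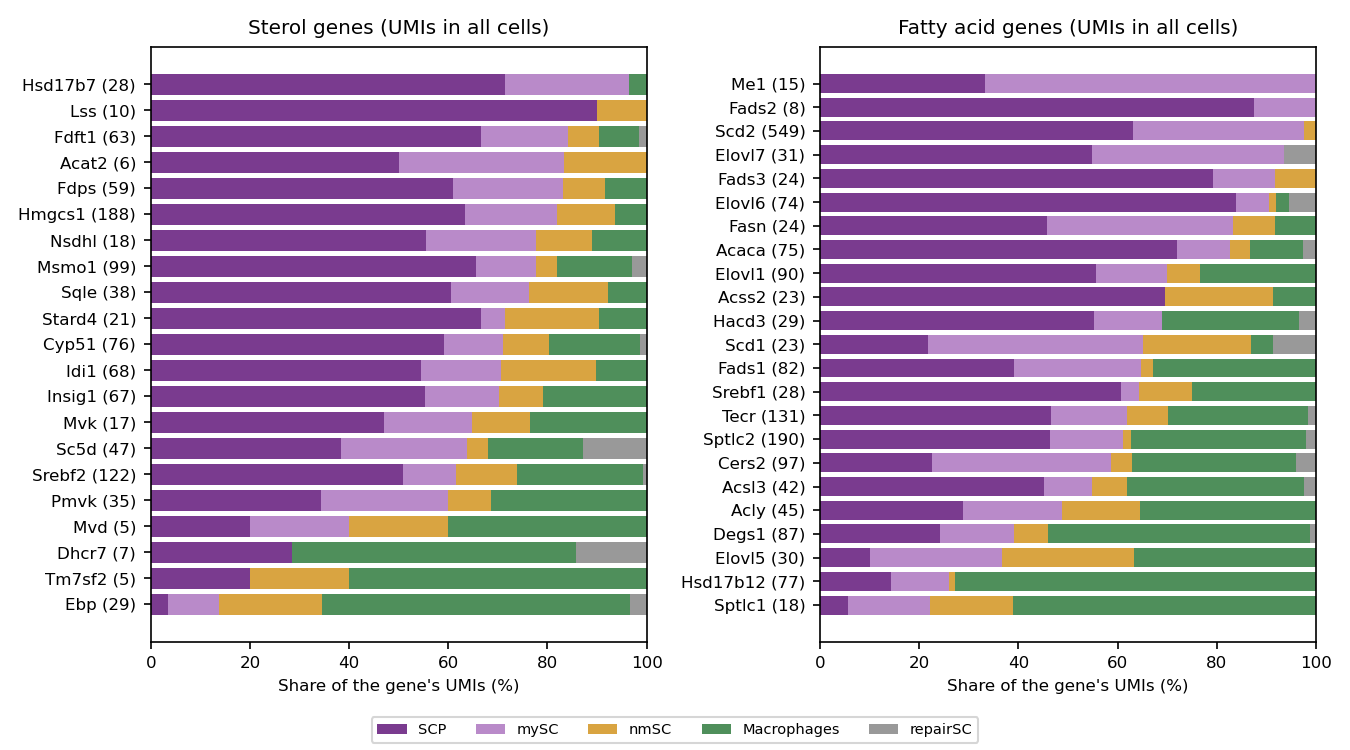
Share of each member's UMIs (%) by deposited cell type, sterol genes left and fatty acid genes right, with the UMIs of the gene in all cells in parentheses. Genes are ordered by the share in SCP and mySC, from Hsd17b7 (96.4%) to Ebp among sterol genes, and from Me1 to Sptlc1 among fatty acid genes.

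The share of UMIs from SCP and mySC together had a lower mean on HFD but overlapped between the diets. SCP and mySC held 40.9%, 46.3% and 63.2% of UMIs on SD and 23.8% and 41.2% on HFD, with means of 50.1% ± 11.6 (SD, n = 3) and 32.5% ± 12.3 (SD, n = 2). HFD replicate 2 lay just above SD replicate 1, and the difference was within the spread (two-sided exact permutation test, p = 0.4, 10 splits, smallest possible p 0.1). SCP alone held 26.3%, 31.7% and 55.0% on SD and 4.28% and 27.4% on HFD (exact permutation p = 0.4). The difference in summed CPM between diets was split by an exact identity into a part from the types' shares of UMIs and a part from levels within types, with libraries weighted equally. For the sterol genes the difference was -597 CPM, of which 63.9% came from the shares and 36.1% from within types. For the fatty acid genes the difference was -813 CPM, of which 63.5% came from the shares and 36.5% from within types. The shares gave 58.7% and 83.4% of the sterol difference within runs 1 and 2, and 44.4% and 139.8% of the fatty acid difference within runs 1 and 2.

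The within-type part was not spread evenly. For the sterol genes mySC contributed 29.7% of the whole difference from within and SCP 11.8%. For the fatty acid genes mySC contributed 62.2% from within, while SCP contributed -21.6%, since its level, weighted by the libraries' shares of UMIs, was 3119 CPM on SD and 3775 CPM on HFD. The share of SCP among UMIs alone corresponded to 81.1% of the sterol and 92.5% of the fatty acid difference, partly offset by the other types.

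Within SCP the sterol ratio of HFD to SD was closer to 1 than over all cells, and the fatty acid levels overlapped between diets. Sterol genes had 2447, 2329 and 2314 CPM on SD and 1870 and 2119 CPM on HFD, with means of 2363 ± 73.1 CPM (SD, n = 3) and 1994 ± 176 CPM (SD, n = 2) and a ratio of 0.844. The groups did not overlap, but the value of HFD replicate 1 came from 28 UMIs in 3 cells (exact 95% Poisson interval 1243 to 2703 CPM), an interval that holds all 3 SD values. Without that library the log2 ratio was -0.16, against -0.25 with it, and within runs it was -0.35 and -0.13. Fatty acid genes had 3575, 3718 and 2555 CPM on SD and 2738 and 3938 CPM on HFD, with means of 3283 ± 634 CPM (SD, n = 3) and 3338 ± 848 CPM (SD, n = 2), a ratio of 1.02. The diets overlapped, and within runs the log2 ratio had opposite signs, -0.41 in run 1 and 0.62 in run 2. Compact myelin genes within SCP had a ratio of 0.807, with overlap. Other marker lists differed without overlap in SCP. Nonmyelinating Schwann markers (5 of 8 detected) were at 44.3 ± 41.3 CPM (SD, n = 3) on SD and 387 ± 169 CPM (SD, n = 2) on HFD. Fibroblast markers (4 of 6 detected) were at 338 ± 251 and 633 ± 48.9 CPM, and mural markers (1 of 4 detected) at 79.9 ± 34.0 and 11.5 ± 16.3 CPM. Their part in the SCP values was not tested.

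Of 1019 genes tested within SCP, edgeR called 0 (0% called) and so did DESeq2, while 16 genes had an unadjusted p under 0.05. The 9 members that passed the filter had a median log2 fold change of -0.43 over 4 sterol genes and -0.09 over 5 fatty acid genes, against -0.02 over all genes tested. Both medians changed sign with the libraries used. The filter was applied anew to each set of libraries, so these medians are over different genes. It kept 4 members without SD replicate 1 and 8 without SD replicate 2. The sterol median was 0.09 without SD replicate 1 and -0.10 without HFD replicate 1. The fatty acid median was 0.26 without HFD replicate 1, 0.08 without SD replicate 2 and 0.06 with only libraries of at least 10 SCP cells. Hmgcs1 had 666, 409 and 289 CPM in SCP on SD and 468 and 391 CPM on HFD, with the HFD values inside the SD range (log2 fold change -0.22 ± 0.62). Scd2 had 1307, 1594 and 964 CPM against 868 and 1543 CPM, also with overlap (-0.09 ± 0.48). Msmo1 had 167, 245 and 434 CPM against 468 and 276 CPM (0.36 ± 0.62), and Srebf2 333, 245 and 193 CPM against 66.8 and 219 CPM (-0.63 ± 0.71). For these 4 genes the diets overlapped in SCP. Elovl6 kept non-overlapping diets in SCP by a small margin, with 256, 286 and 241 CPM on SD and 200 and 230 CPM on HFD. Fdft1 had 167, 225 and 241 CPM against 0 and 150 CPM (-0.93 ± 0.95), and the 0 of HFD replicate 1 allows up to 200.4 CPM at this depth.

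Acaca was higher on HFD in SCP, with 154, 184 and 96.4 CPM on SD and 801 and 219 CPM on HFD, and had the lowest unadjusted p of the members there (log2 fold change 1.43 ± 0.70, unadjusted p = 0.0493 and adjusted p = 1.00 by edgeR). The HFD replicate 1 value came from 12 UMIs, 8 of them in 1 cell. Over all 44 members in SCP, the diets did not overlap for Fdft1, Hsd17b7, Elovl6 and Hacd3, which were lower on HFD. Nor did they for Acaca and Acsl3, which were higher. Hacd3 is a dehydratase of elongation and Acsl3 a long-chain acyl-CoA synthetase. Hsd17b7 had 12, 4 and 1 UMIs on SD and 0 and 3 on HFD. Hacd3 had 6, 4 and 2 against 0 and 4, and Acsl3 4, 4 and 1 against 2 and 8. At 0 UMIs HFD replicate 1 allows up to 200.4 CPM, above every SD value of Hsd17b7 and Hacd3. Hsd17b7, Hacd3 and Acsl3 did not pass the filter in SCP. Among the members tested in SCP, the HFD libraries lay below all SD libraries for 1 of 4 sterol and 1 of 5 fatty acid genes. They lay above for 0 of 4 and 1 of 5. Among all genes tested in SCP the HFD libraries lay below all SD libraries for 7.75% and above them for 10.3%.

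Single SCP cells varied widely. Among the 57 SCP cells with at least 1000 UMIs, the sterol level ran from 0 to 6260 CPM with a median of 2076 CPM, and the fatty acid level from 409 to 8735 CPM with a median of 3304 CPM. The median SCP cell had 2337 CPM of sterol genes on SD (34 cells) and 1598 CPM on HFD (23 cells), and 3478 and 3132 CPM of fatty acid genes. Cells of a library are not replicates of a diet, and these medians carry no test. Across the 57 cells, which share libraries and differ in depth, Spearman's rho was 0.36 between the sterol and fatty acid levels, 0.19 between sterol genes and myelinating markers, 0.27 between fatty acid genes and myelinating markers, and 0.41 between the fatty acid level and depth.

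Within mySC the difference was larger than over all cells. Sterol genes had 1637, 1945 and 967 CPM on SD and 337 and 479 CPM on HFD, with means of 1516 ± 500 CPM (SD, n = 3) and 408 ± 100 CPM (SD, n = 2), a ratio of 0.269. Fatty acid genes had 4104, 4994 and 4191 CPM on SD and 806 and 1276 CPM on HFD, with means of 4430 ± 491 CPM (SD, n = 3) and 1041 ± 333 CPM (SD, n = 2), a ratio of 0.235. Neither list overlapped between diets, but the sterol value of SD replicate 3 came from 3 UMIs in 7 cells. Its exact Poisson interval, 199 to 2826 CPM, holds the sterol values of the HFD libraries. Markers of other cells moved with the difference between diets. All 14 myelinating markers were detected, at 2.94% to 6.93% of mySC UMIs on SD and 0.812% and 0.834% on HFD. The 6 neutrophil markers were at 0 on SD and 2.86% and 4.43% on HFD. The 9 macrophage markers were at 0% to 0.113% on SD and 0.305% to 0.357% on HFD. The 5 erythroid markers were at 0 on SD and 0 to 33.9% on HFD. Mast cell markers overlapped between diets, at 0 to 0.673% on SD and 0 to 0.00684% on HFD.

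These markers sat in a few deep cells. The deepest mySC cell, of HFD replicate 1, had 24932 UMIs, of which 92.8% were from erythroid markers, and 0 UMIs of either list. SD replicate 1 had a mySC cell of 13256 UMIs with 0.0302% from myelinating markers. It also had a cell of 2220 UMIs with 13.1% from neutrophil, erythroid or mast markers. Of the 8 mySC cells of HFD replicate 1, 3 had at least 1% myelinating marker UMIs and held 7.36% of the library's mySC UMIs. In HFD replicate 2 this was 11 of 16 cells with 20.0% of UMIs, and in the SD libraries 18 of 25, 32 of 36 and 7 of 7 cells with 42.9%, 91.2% and 100% of UMIs. The limit of 1% was chosen after the values were seen, and 6 mySC cells lay between 0.5% and 2%.

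**Figure D4:**
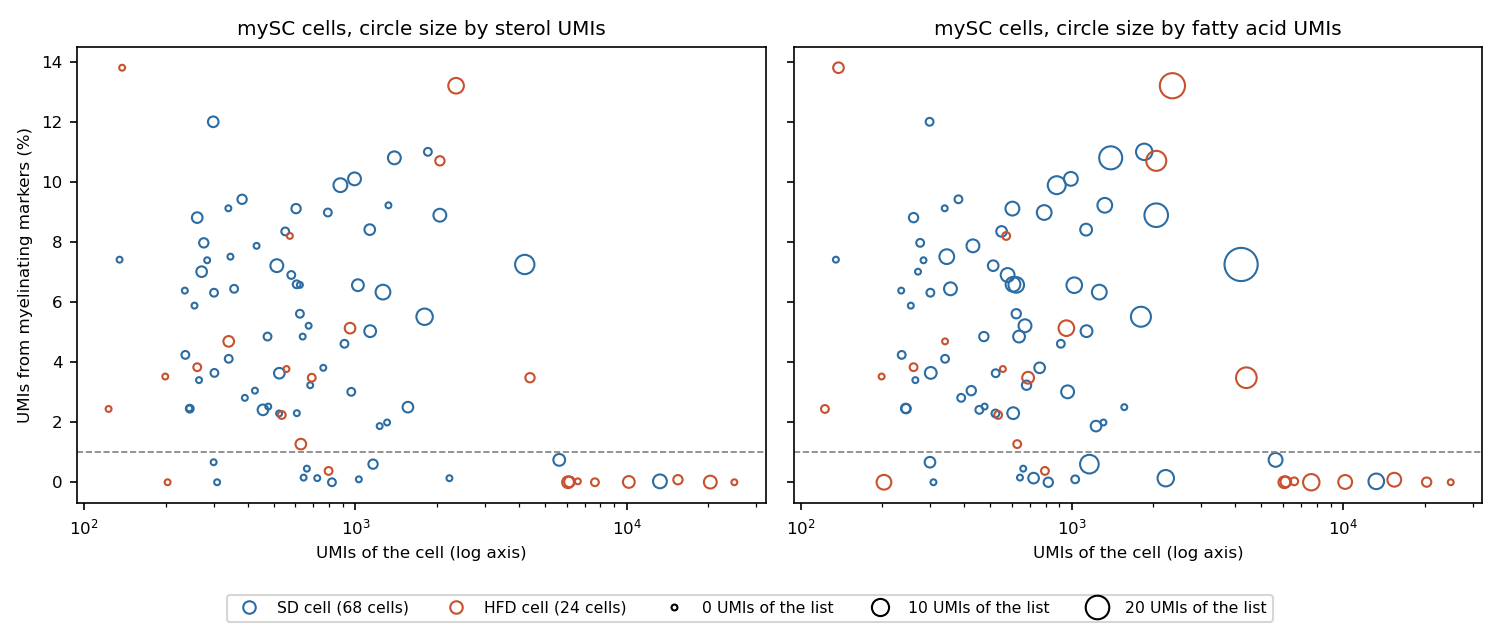
Each circle is a mySC cell, placed by its UMIs (log axis) and its share of UMIs from the 14 myelinating markers (%), with the circle size growing with its sterol UMIs (left) or fatty acid UMIs (right) and a dashed line at 1%. The deepest cells, up to 24932 UMIs, are mostly HFD cells near 0% myelinating markers with few list UMIs.

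In the mySC cells with at least 1% myelinating markers, sterol genes had 3117, 2133 and 967 CPM on SD and 2587 and 1254 CPM on HFD, with means of 2072 ± 1076 CPM (SD, n = 3) and 1920 ± 942 CPM (SD, n = 2) and a ratio of 0.927. Fatty acid genes had 7525, 5186 and 4191 CPM on SD and 7561 and 3876 CPM on HFD, a ratio of 1.01. The diets overlapped in both lists. Counts were low, with 13 and 11 sterol UMIs in the HFD libraries and 3 in SD replicate 3, and the exact 95% Poisson intervals of the HFD sterol levels ran from 1377 to 4423 CPM and from 626 to 2244 CPM. In SD replicate 3 the fatty acid value also leaned on Me1, malic enzyme, of which 7 of 15 UMIs lay in 1 mySC cell. The mySC cells below 1%, absent from SD replicate 3, had fatty acid levels of 1534 and 3009 CPM on SD. On HFD they had 269 and 627 CPM, a ratio of 0.197 without overlap. The SD replicate 2 value came from 6 UMIs in 4 cells. Their sterol levels were 525 and 0 CPM on SD and 158 and 285 CPM on HFD, with overlap. With mySC split in this way, 87.0% of the sterol difference over all cells came from the shares of UMIs and the rest from within types. For the fatty acid genes the shares gave 109% of the difference and the levels within types -9.27%. The split sorts cells by their own myelinating marker share, so a cell with less myelin RNA moves to the other class. Change within such cells is then counted in the shares, and the 2 cannot be told apart by this split.

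The test within mySC called 52 of 656 genes (7.93% called, 1.07% lower on HFD), and 0 of the 5 members tested. All 5 members lay below 0, as did 41.2% of all genes tested, whose median was 0.42. Hmgcs1 had a log2 fold change of -2.21 ± 1.07 (adjusted p = 0.195 by edgeR), Fads1 -3.02 (adjusted p = 0.102 by edgeR) and Cers2 -2.14 (adjusted p = 0.224 by edgeR). Sptlc2 stood at -1.66 and Scd2 at -1.24. Without SD replicate 1 the test called 99 of 395 genes and 2 of the 3 members tested. These were Hmgcs1 and Cers2, the only members to pass the threshold in any fit made here. DESeq2 called 0 members, and 2 of the 5 had an unadjusted p under 0.05 and were lower, against 6.86% of all genes tested. In the cells with at least 1% myelinating markers edgeR called 0 of 71 genes, 5 of them with an unadjusted p under 0.05, and DESeq2 was not run.

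SCP and mySC were also taken as a single population. Sterol genes were at 2168 ± 35.5 CPM (SD, n = 3) and 1090 ± 676 CPM (SD, n = 2), and fatty acid genes at 3551 ± 702 CPM (SD, n = 3) and 2099 ± 1337 CPM (SD, n = 2). Restricted to cells with at least 1% myelinating markers, the sterol means were 2329 ± 225 and 2075 ± 34.6 CPM, a ratio of 0.891 without overlap, and the fatty acid means were 3752 ± 857 and 3963 ± 18.1 CPM, a ratio of 1.06 with overlap. The test on both types called 38 of 1779 genes (2.14% called) and 0 of 16 members, of which 0 had an unadjusted p under 0.05 and DESeq2 called 0. In the restricted cells edgeR called 0 of 1640 genes, 40 of them with an unadjusted p under 0.05, and DESeq2 was not run. The share of all UMIs from cells with at least 1% myelinating markers, of any type, was 32.6%, 45.0% and 64.1% on SD and 5.72% and 28.5% on HFD, without overlap (exact permutation p = 0.2, smallest possible p 0.1).

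Macrophages held most of the remaining UMIs, and the diets overlapped there. Sterol genes were at 229 ± 30.1 CPM (SD, n = 3) and 293 ± 72.7 CPM (SD, n = 2), and fatty acid genes at 664 ± 267 and 681 ± 2.35 CPM, both with overlap. Of 2302 genes 1 was called (0.0434% called), 0 of the 5 fatty acid genes tested were called or had an unadjusted p under 0.05, DESeq2 called 0, and no sterol gene passed the filter on low counts.

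Genes of the same pathways outside the 2 lists were read from fixed lists. Of 20 further sterol genes 16 were tested over all cells, 9 below and 7 above SD, and of 27 further fatty acid and sphingolipid genes 14 were tested, 9 below and 5 above, with 0 called by edgeR and 1 and 2 at an unadjusted p under 0.05. Fa2h and Ugt8a, which make the hydroxylated galactolipids of myelin, had 100% and 99.6% of their UMIs in SCP and mySC, and log2 fold changes of -0.90 and -0.87 over all cells but 0.37 and -0.01 within SCP. The 10 compact myelin genes were all below SD over all cells, with a median of -1.26, and within SCP 8 were below and 2 above, with a median of -0.20. Lpl, lipoprotein lipase, which releases fatty acids from lipoproteins outside the cell, had 74.2, 45.3 and 26.5 CPM on SD and 186 and 290 CPM on HFD (log2 fold change 2.22 ± 0.54, adjusted p = 0.439 by edgeR), with 84.5% of its UMIs in Macrophages. Within Macrophages its log2 fold change was 1.96 ± 0.56 (adjusted p = 0.224 by edgeR).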

How the data were processed

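Per the labels, single cells of O4-enriched mouse sciatic nerve were measured. The authors deposited UMI counts (unnormalized) and a table with library, cell type and the percent of mitochondrial UMIs per cell (highest 4.97%), made with Cell Ranger 3.1.0 and mm10 per the submitters' processing notes. How cells were filtered and doublets treated is not given in the sources used here, and no doublet caller was run. For each library, counts were added up over all its cells and over each deposited type with at least 3 cells, and tested with edgeR 4.0.16 (filterByExpr, TMM, robust quasi-likelihood, diet as the only term) and Benjamini-Hochberg adjustment at 0.05 over all genes tested. Approximate standard errors are the fold change over the square root of F. The code was tested on simulated data for all cells, SCP, and SCP with mySC, but not for mySC alone. All genes had the same spread in these data, and each percentage given rests on 26 to 42 genes. There, log2 changes of -1, -2 and -3 were called for 3.33%, 7.14% and 35.7% of genes over all cells, and 0%, 27% and 67.6% in SCP. Changes of 1, 2 and 3 were called for 2.7%, 18.9% and 80.8% over all cells, and 13.3%, 75% and 100% in SCP. A member that was not called may therefore still differ between diets. Printed CPM divide by all UMIs of the cells, without TMM. Members described singly were the 8 of each list with the highest mean CPM among those kept by the filter, the 4 with the lowest p, Srebf1, Srebf2 and any that passed a threshold. The members and lists were chosen with earlier results of these data known. Alternatives were RLE scaling, no filter, DESeq2 1.42.0, a replicate block, a run term, at least 10 cells per library, leaving out libraries, and subsets of cells by markers, the last chosen after seeing the data. Confidence intervals are exact at 95%, and the floor is 3 counts. Runs are the 2 project numbers in the library key. Single values of some genes outside the 2 lists are not reported here.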

Additional observations from a re-analysis of the deposited data

How the results depend on the processing

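Depth limits every value here: 27 of 44 members could be tested over all cells, 9 within SCP and 5 within mySC, and HFD replicate 1 had 3 SCP cells. No member was called under any alternative except 2 within mySC without SD replicate 1, where 99 of 395 genes were called. The number of genes called over all cells, 5, was 47 with no filter, 9 with DESeq2, 57 with a run term, 0 without cells with over 1% neutrophil, erythroid or mast markers, and 0 to 54 when a library was left out. Within SCP, 0 became 2 with no filter, 1 with a run term, 3 with at least 10 cells per library, and 0 to 4 without single libraries. Within mySC, 52 became 8 with no filter, 13 with at least 10 cells, 1 without those foreign-marked cells, 0 in cells with at least 1% myelinating markers, and 22 to 99 without single libraries. For both types together, 38 became 91, 106 with a run term, 0 in the marked cells, and 15 to 199 without single libraries. In Macrophages, 1 became 0 with DESeq2 and with a run term, and 0 to 4 without single libraries. The replicate numbers need not pair the samples: only 2 numbers are shared, the labels do not say what they mark, and the deviations of same-numbered libraries correlated with r = 0.0856 over 7096 genes. The replicate block gave 33 calls over all cells, 21 within mySC, 87 for both types and 5 in Macrophages, an SCP sterol median of -0.33, and log2 fold changes of 0.037 for Cyp51 over all cells and -0.47 for Sptlc2 in SCP.

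The SCP sterol median of -0.43 was -0.33 with no filter, -0.17 with at least 10 cells, -0.28 in marked cells and -0.62 to 0.091 without single libraries. The members tested differed between these settings. The SCP fatty acid median ranged from -0.95 to 0.26 and the sterol median of both types from -1.46 to -0.15 without single libraries. Summed log2 ratios within run 1 and run 2 were -1.45 and -0.68 (sterol) and -1.35 and -0.29 (fatty acid) over all cells, -0.35 and -0.13, and -0.41 and 0.62, in SCP, and -2.41 and -1.02, and -2.50 and -1.72, in mySC. For both types they were -1.83 and -0.45 (sterol) and -1.77 and 0.14 (fatty acid). Over both runs, the sterol and fatty acid ratios in marked cells were -0.11 and 0.021 in mySC and -0.17 and 0.079 for both types, and the mySC fatty acid ratio was -1.55 without foreign-marked cells. Without single libraries the summed log2 ratios ranged as follows: over all cells -1.54 to -0.51 (sterol) and -1.35 to -0.30 (fatty acid), in SCP -0.34 to -0.16 (sterol) and -0.26 to 0.26 (fatty acid), in mySC -2.17 to -1.66 (sterol) and -2.46 to -1.80 (fatty acid), and for both types -1.82 to -0.47 (sterol) and -1.62 to -0.22 (fatty acid). The share from cell mix for sterol genes (63.9%) was 50.1% with pooled libraries, 87.0% with mySC split, 83.4% within run 2 and 46.2% to 75.5% without single libraries. For fatty acid genes (63.5%) it was 49.4% with pooled libraries, 46.7% with SD levels as reference, 82.0% without foreign-marked Schwann-named cells, 109% with mySC split, 44.4% and 139.8% within runs 1 and 2, and 45.7% to 71.1% without single libraries. The share of UMIs in SCP and mySC fell from 72.1% to 69.1% (sterol) and from 73.2% to 70.4% (fatty acid) without the fullest cell of each library. Single genes that changed sign, none called, were Cyp51 over all cells (-1.36 to 0.073 without single libraries), Sptlc2 (-0.57 to 0.25), Acaca (-0.42 to 0.065) and Srebf1 (-1.37 to 0.31). In SCP they were Hmgcs1 (0.015 with a run term, -0.46 to 0.17 without single libraries), Scd2 (0.10 with at least 10 cells, -0.84 to 0.26 without single libraries), Tecr (0.073 with at least 10 cells) and Sptlc2, whose 0.03 was -0.034 with no filter, -0.010 with DESeq2, and -0.95 to 0.54 without single libraries.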
